A study of Mus musculus with 6 samples.

Results

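The S100 calcium-binding proteins were examined in CFPAC-1 cells after knockdown of KRT7. The 10 genes S100A2, S100A4, S100A6, S100A8, S100A9, S100A10, S100A11, S100A14, S100A16 and S100P were taken by their Ensembl identifiers from a table of 30543 genes. All 10 were present, and all 10 passed the filter on low counts that left 15736 genes for testing. CFPAC-1 is an established human PAAD cell line of ductal origin, and RNA was sequenced from 3 libraries of cells given a negative control siRNA (si-Control) and 3 libraries of cells given a siRNA against the keratin gene KRT7 (si-KRT7). The groups otherwise shared the cell line and the library preparation, and the labels give no dose, no time after transfection and no siRNA duplex. The paper lists different duplexes against KRT7 and does not say which of them each si-KRT7 library received. In the labels the organism is the mouse, but the identifiers of the 10 genes are human ones. The labels do not say whether the libraries of a group came from separate cultures. The paper's caption for the figure with its RNA-seq panels speaks of 3 independent experiments, but does not tie this to the libraries. The p-values therefore measure the spread between these libraries, which may be technical.

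S100 proteins are small calcium sensors built around a pair of EF-hand motifs, loops that bind calcium, and most work as dimers. On binding calcium they open a surface that grips partner proteins, such as annexins at membranes and elements of the actin and intermediate filament cytoskeleton. Some are also secreted and act on receptors of neighbouring cells, and several, among them S100P, S100A4 and S100A6, are known to be abundant in PAAD. Most S100A genes lie together in a cluster on one chromosome, whereas S100P lies elsewhere.

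Library totals lay between 28208896 and 36315802 counts, with the lowest total in si-KRT7 replicate 2. That library stood apart from its group. Across the genes tested, its log2 CPM correlated at 0.982 with each of the other si-KRT7 libraries and libraries of different groups at 0.983 to 0.986, whereas si-KRT7 replicates 1 and 3 correlated at 0.992. Genes, over which these correlations run, are no independent replicates. The fold changes are therefore given with all 6 libraries and without si-KRT7 replicate 2. Only the 10 S100 identifiers had a gene name to go with them, so the level of KRT7 and markers of the cell type were not analysed here.

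With all 6 libraries, none of the 10 S100 genes passed an adjusted p of 0.05 over all genes tested in edgeR's quasi-likelihood test of si-KRT7 against si-Control cells. The lowest adjusted p among them was 0.300, and 0 of the 10 had an unadjusted p under 0.05. Over all 15736 genes the same limit was passed by 2.07% (0.712% higher and 1.35% lower, and 0.292% with an absolute log2 fold change over 1 as well), and 18.6% had an unadjusted p under 0.05. In limma-voom, and in the DESeq2 Wald test, which gave S100A8 no adjusted p, the number of S100 genes past the limit was also 0. Other fits to the same 6 libraries did call S100 genes. With sample quality weights, by which libraries that deviate count for less, limma-voom called S100A2, S100A6, S100A10, S100A11, S100A14 and S100A16, all lower in si-KRT7 cells, where it called 43.6% of all genes and 21.8% as lower. The log2 fold changes of these 6 genes ran from -0.51 for S100A6 (adjusted p = 8.67e-07 in limma) to -0.19 for S100A10 (adjusted p = 0.00195 in limma), with -0.49 for S100A2 (adjusted p = 2.43e-06 in limma). With no filter on low counts edgeR called S100A9 as higher and S100A6 as lower, 2 of the 10, where it called 4.41% of all genes. The groups overlapped in every S100 gene, while they did not overlap in 24.4% of all genes tested. The median log2 fold change of the 10 genes was -0.07, against 0.01 over all genes.

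The spread within si-KRT7 cells was wide for these genes. The coefficient of variation of CPM, the read counts scaled to a common library size with TMM, had a median over the 10 genes of 3.49% among the si-Control libraries and 27.4% among the si-KRT7 libraries. Over all genes tested the medians were 6.15% and 16.03%. It was larger in si-KRT7 than in si-Control cells for 10 of 10 S100 genes and for 76.7% of all genes. In all 10 S100 genes si-KRT7 replicate 2 was above both other si-KRT7 libraries, which held for 44.0% of all genes. It was also above every si-Control library in 9 of the 10, S100A16 being the exception, against 37.4% of all genes. The difference between si-KRT7 replicate 2 and the mean of replicates 1 and 3 had a median of 0.61 on the log2 scale over the 10 genes and 0.01 over all genes. With 1 library on that side these are descriptions with no test.

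**Figure D1:**
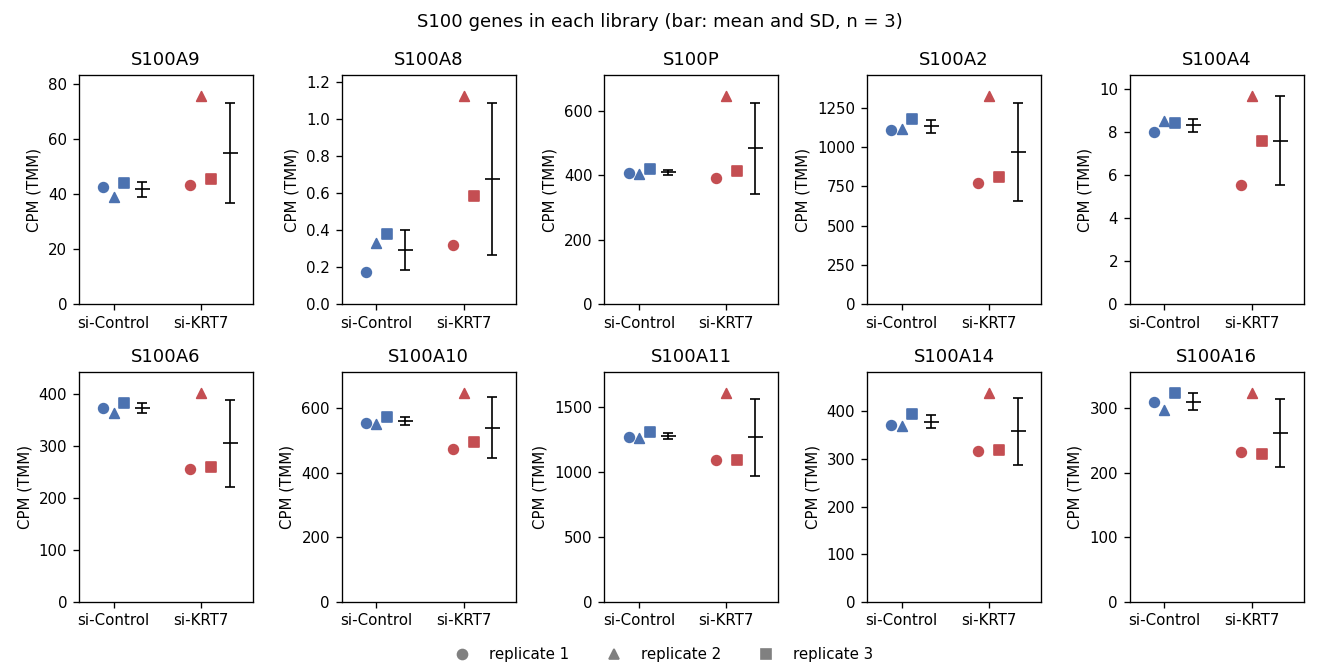
CPM after TMM scaling (vertical axis, from 0, a separate scale in each panel) of each S100 gene in the 3 si-Control (blue) and 3 si-KRT7 (red) libraries, with circles, triangles and squares for replicates 1, 2 and 3 and black bars for the mean and SD (n = 3). In each of the 10 panels the red triangle, si-KRT7 replicate 2, lies above the other red points.

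Without si-KRT7 replicate 2, 7 of the 10 S100 genes were lower in si-KRT7 cells at an adjusted p under 0.05 in edgeR, and none was higher. In that fit 42.9% of 16202 genes passed the limit, 22.0% lower and 20.9% higher. The 7 genes were S100A2, S100A4, S100A6, S100A10, S100A11, S100A14 and S100A16, and in each of them the 2 remaining si-KRT7 libraries lay below all si-Control libraries, as they did in 30.8% of all genes, while in 29.8% they lay above. S100A8, S100A9 and S100P did not pass. None of the 10 had an absolute log2 fold change over 1, while 2.20% of all genes had that together with an adjusted p under 0.05. The library was left out because it stood apart over all genes, the S100 genes included, so these calls describe the other libraries and are not a separate test of the knockdown. The median log2 fold change over the 10 genes was -0.24 in this fit, against -0.01 over all genes.

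**Figure D2:**
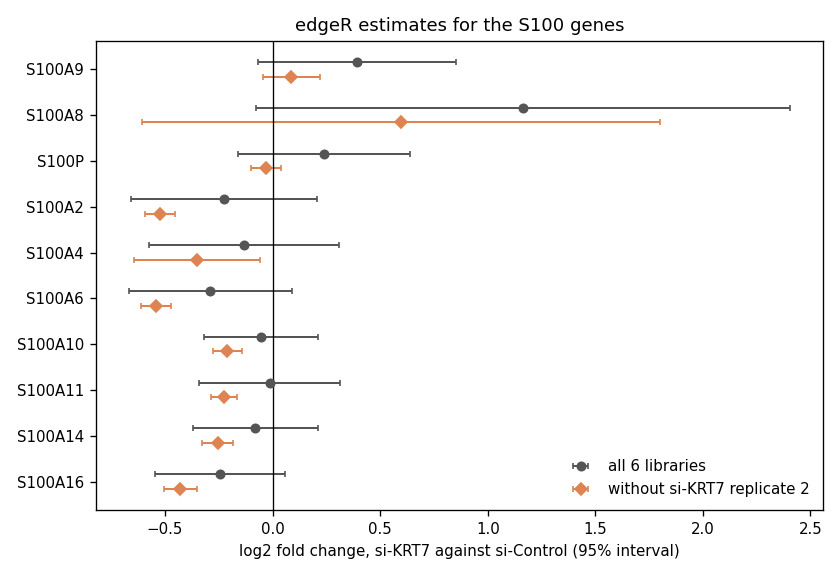
Log2 fold change of si-KRT7 against si-Control from edgeR (horizontal axis) with its 95% interval for each S100 gene, with all 6 libraries (grey circles) and without si-KRT7 replicate 2 (orange diamonds). All grey intervals reach across 0, while 7 orange intervals lie wholly below 0 and are narrower than the grey ones.

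S100A8 and S100A9 form calprotectin, a secreted heterodimer known from neutrophils and inflamed epithelium that acts on the receptors TLR4 and RAGE. S100A9 (ENSG00000163220) had 42.6, 38.7 and 43.9 CPM in si-Control replicates 1, 2 and 3, and 43.4, 75.6 and 45.3 CPM in those of si-KRT7. The high value was that of si-KRT7 replicate 2, at 181% of the si-Control mean, and the other si-KRT7 libraries stood at 104% and 109%. The means were 41.7 ± 2.68 CPM (SD, n = 3) and 54.8 ± 18.1 CPM (SD, n = 3), and the log2 fold change was 0.39 (standard error 0.20, adjusted p = 0.344 in edgeR). Without si-KRT7 replicate 2 it was 0.09 (standard error 0.06, adjusted p = 0.307 in edgeR). With no filter on low counts S100A9 passed the limit with all 6 libraries, at a log2 fold change of 0.38 and an adjusted p of 0.0416 in edgeR.

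S100A8 (ENSG00000143546) was read 6, 12 and 12 times in the si-Control libraries and 12, 31 and 18 times in the si-KRT7 libraries. At this depth counting error is large: the 95% Poisson interval was 2.20 to 13.1 for the 6 counts and 21.1 to 44.0 for the 31 counts. The highest value was again in si-KRT7 replicate 2, and si-KRT7 replicate 1, with 0.323 CPM, lay within the si-Control range of 0.174 to 0.381 CPM. The log2 fold change was 1.16 (standard error 0.54, adjusted p = 0.300 in edgeR), with a 95% interval from -0.08 to 2.40. It was 0.60 without si-KRT7 replicate 2, with an interval from -0.61 to 1.80. Neither interval leaves out 0.

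Of the reads on the calprotectin pair, S100A8 took between 0.406% and 0.862% in si-Control and between 0.738% and 1.47% in si-KRT7 libraries. The exact 95% binomial (Clopper-Pearson) interval was 0.9999% to 2.08% in si-KRT7 replicate 2. It lay above the interval of si-Control replicate 1, 0.149% to 0.882%, and overlapped those of si-Control replicates 2 and 3, whose upper bounds were 1.48% and 1.501%. The intervals of si-KRT7 replicates 1 and 3 overlapped those of all si-Control libraries. All of these intervals cover counting error only. There were between 67.1 and 245 S100A9 reads for each S100A8 read in the 6 libraries. These ratios are of reads, not of molecules per length, since transcript lengths were not used here.

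**Figure D3:**
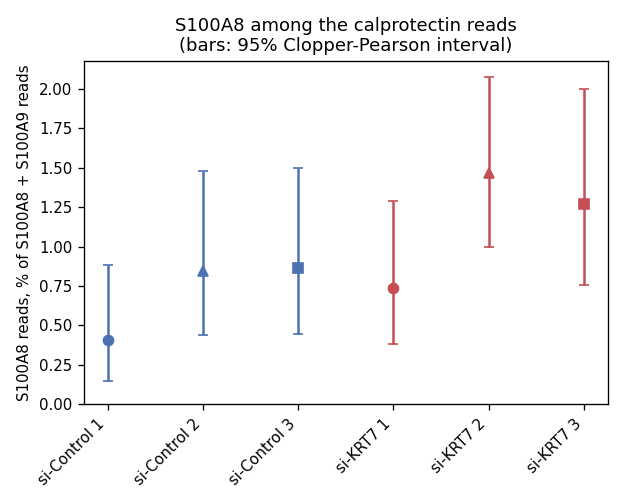
S100A8 reads as a percentage of the S100A8 and S100A9 reads together (vertical axis, from 0) in each of the 6 libraries, with 95% Clopper-Pearson intervals as bars. The highest share is 1.47% in si-KRT7 replicate 2 (red triangle), whose interval lies above that of si-Control replicate 1 (blue circle), while all other pairs of a red and a blue interval overlap.

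S100P is a secreted ligand of RAGE and a known marker of PAAD and its precursor lesions. S100P (ENSG00000163993) stood at 406, 404 and 418 CPM in si-Control replicates 1, 2 and 3 and at 391, 647 and 413 CPM in si-KRT7 replicates 1, 2 and 3. Replicates 1 and 3 of si-KRT7 were thus near the si-Control libraries, at 95.5% and 100.9% of their mean, and replicate 2 was at 158%. The log2 fold change was 0.24 (standard error 0.17, adjusted p = 0.508 in edgeR). Without si-KRT7 replicate 2 the estimate turned to -0.03, with a 95% interval from -0.10 to 0.04. The interval leaves room for a decrease or an increase of a few percent between the remaining libraries.

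S100A2 is a mainly nuclear member of squamous and basal epithelium that binds p53. S100A2 (ENSG00000196754) had 1106, 1111 and 1180 CPM in si-Control replicates 1, 2 and 3 and 769, 1326 and 808 CPM in si-KRT7 replicates 1, 2 and 3. Replicates 1 and 3 of si-KRT7 lay at 67.9% and 71.4% of the si-Control mean, below every si-Control library, and replicate 2 lay at 117%, above every one. The means over all 6 libraries were 1133 ± 40.9 CPM (SD, n = 3) for si-Control and 968 ± 311 CPM (SD, n = 3) for si-KRT7, and the log2 fold change was -0.23, with a 95% interval from -0.66 to 0.20 and an adjusted p of 0.562 in edgeR. When si-KRT7 replicate 2 was left out, S100A2 fell by 0.52 on the log2 scale (standard error 0.03, adjusted p = 1.77e-11 in edgeR).

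S100A4, also called metastasin, binds nonmuscle myosin and is linked to cell motility and to mesenchymal cells. S100A4 (ENSG00000196154) had few reads, between 206 and 308 per library. Its CPM were 7.998, 8.51 and 8.45 in si-Control replicates 1, 2 and 3 and 5.55, 9.71 and 7.59 in si-KRT7 replicates 1, 2 and 3. Here replicates 1 and 3 of si-KRT7 differed from each other as well, at 66.7% and 91.3% of the si-Control mean. The log2 fold change was -0.13 (adjusted p = 0.760 in edgeR), and it was 0.05 without si-KRT7 replicate 1. Without si-KRT7 replicate 2 it was -0.35 (standard error 0.14), and the adjusted p of 0.0487 in edgeR was close to the limit. In that set of libraries the DESeq2 Wald test gave an adjusted p of 0.128 for S100A4.

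S100A6, S100A10 and S100A11 work at membranes with annexins. S100A6, calcyclin, binds annexins and the ubiquitin ligase adaptor CACYBP and is known to be high in PAAD. S100A6 (ENSG00000197956) had 373, 363 and 382 CPM in si-Control replicates 1, 2 and 3 and 255, 402 and 258 CPM in si-KRT7 replicates 1, 2 and 3. Replicates 1 and 3 of si-KRT7 were close to each other, at 68.4% and 69.3% of the si-Control mean, and replicate 2 was at 108%. Over all 6 libraries the log2 fold change was -0.29 (standard error 0.17, adjusted p = 0.392 in edgeR). With that library left out, S100A6 fell by 0.54 on the log2 scale (standard error 0.03, adjusted p = 1.19e-11 in edgeR), the largest decrease on this scale among the 10 genes. With no filter on low counts S100A6 passed the limit with all 6 libraries, at a log2 fold change of -0.31 and an adjusted p of 0.0382 in edgeR.

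S100A10, p11, is the partner of annexin A2, with which it docks plasminogen at the cell surface, and it holds its active form without calcium. S100A10 (ENSG00000197747) had 556, 552 and 574 CPM in si-Control replicates 1, 2 and 3 and 475, 647 and 496 CPM in si-KRT7 replicates 1, 2 and 3. Again replicate 2 of si-KRT7 was the highest of the 6 libraries and replicates 1 and 3 were the lowest. The log2 fold change was -0.06 (adjusted p = 0.842 in edgeR) with all 6 libraries and 0.03 without si-KRT7 replicate 1. In the fit without si-KRT7 replicate 2, S100A10 fell by 0.21 on the log2 scale (standard error 0.03, adjusted p = 1.22e-05 in edgeR).

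S100A11, calgizzarin, pairs with annexin A1 and takes part in keratinocyte growth arrest and membrane repair. S100A11 (ENSG00000163191) had 1273, 1260 and 1305 CPM in si-Control replicates 1, 2 and 3 and 1096, 1609 and 1095 CPM in si-KRT7 replicates 1, 2 and 3. The values on both sides of the si-Control libraries nearly cancelled, with means of 1279 ± 23.2 CPM (SD, n = 3) and 1267 ± 296 CPM (SD, n = 3) and an estimated log2 fold change of -0.01 (95% interval from -0.34 to 0.31, adjusted p = 0.971 in edgeR). The estimate was 0.08 without si-KRT7 replicate 1 and also 0.08 without si-KRT7 replicate 3. S100A11, without si-KRT7 replicate 2, fell by 0.23 on the log2 scale (standard error 0.03, adjusted p = 7.51e-07 in edgeR).

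S100A14 and S100A16 are epithelial members, and S100A14 is found at cell borders and has been linked to invasion. S100A14 (ENSG00000189334) had 372, 369 and 394 CPM in si-Control replicates 1, 2 and 3 and 317, 439 and 318 CPM in si-KRT7 replicates 1, 2 and 3. Its log2 fold change was -0.08 (adjusted p = 0.785 in edgeR) with all 6 libraries. In the fit without si-KRT7 replicate 2 it fell by 0.26 on the log2 scale (standard error 0.03, adjusted p = 2.00e-06 in edgeR). For S100A16 (ENSG00000188643) the si-Control libraries had 309, 297 and 324 CPM and the si-KRT7 libraries 233, 323 and 229 CPM. It was the only S100 gene in which si-KRT7 replicate 2 lay within the si-Control range, at 104% of the mean. With all 6 libraries its log2 fold change was -0.25 (standard error 0.13, adjusted p = 0.367 in edgeR), and without si-KRT7 replicate 2 it fell by 0.43 on the log2 scale (standard error 0.04, adjusted p = 1.96e-09 in edgeR).

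**Figure D4:**
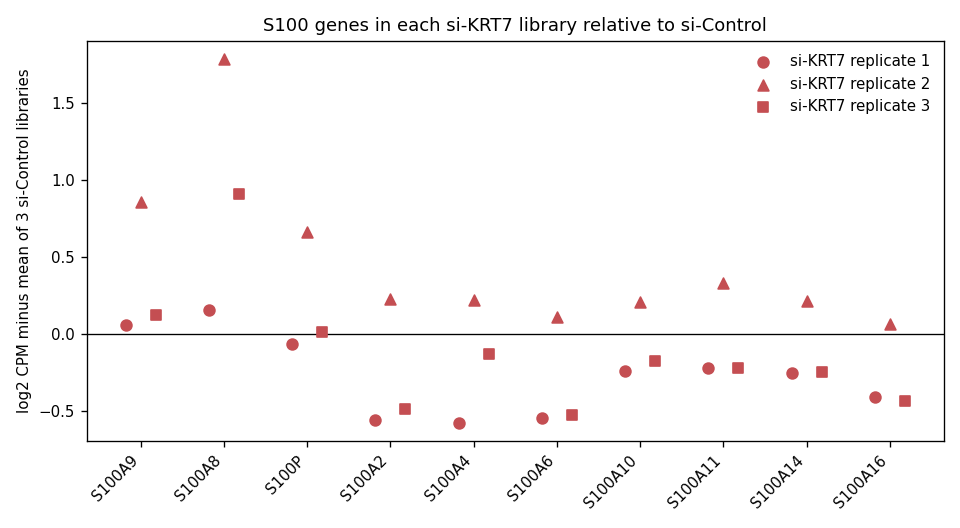
Log2 CPM (prior count 2) of each S100 gene in si-KRT7 replicates 1 (circles), 2 (triangles) and 3 (squares), minus the mean of the 3 si-Control libraries (vertical axis, 0 is the si-Control mean). All 10 triangles lie above 0, while 8 circles and 7 squares lie below it.

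Relative to the si-Control mean, 8 of the 10 S100 genes were lower in si-KRT7 replicate 1, 7 in replicate 3 and 0 in replicate 2, where 50.2%, 50.2% and 48.5% of all genes tested were lower. The genes did not move by the same amount. The ratio of si-KRT7 replicate 2 to the mean of replicates 1 and 3 ran from 1.33 in S100A10 to 2.48 in S100A8, whose counts are low, and it was 1.70 in S100A9 and 1.68 in S100A2.

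Together the 10 genes took 4446, 4403 and 4630 CPM in si-Control replicates 1, 2 and 3 and 3585, 5479 and 3672 CPM in those of si-KRT7. The means were 4493 ± 121 CPM (SD, n = 3) and 4245 ± 1069 CPM (SD, n = 3), and the mean of si-KRT7 replicates 1 and 3 was 3629 CPM. Without si-KRT7 replicate 1 or 3 the si-KRT7 mean was 4576 or 4532 CPM, above that of si-Control, so that which group was higher depended on the libraries used. Scaled by library size only, the si-KRT7 libraries had 3677, 5341 and 3745 CPM, with replicate 2 again the highest. In a bulk sample, fewer cells that express a gene and less of its RNA per cell cannot be told apart. The part of the lower depth of si-KRT7 replicate 2 in these values was not tested.

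The make-up of the S100 reads differed between the groups in a way that included si-KRT7 replicate 2. As a share of the reads on the 10 genes, S100P took 9.13%, 9.16% and 9.04% in si-Control replicates 1, 2 and 3 and 10.9%, 11.8% and 11.2% in those of si-KRT7. S100A9 took between 0.880% and 0.959% in si-Control and between 1.21% and 1.38% in si-KRT7 libraries. S100A8 and S100A11 were the other genes whose share was higher in all si-KRT7 libraries than in all si-Control libraries. For S100A8 the nearest shares, 0.00901% in si-KRT7 replicate 1 and 0.00824% in si-Control replicate 3, rested on 12 counts each, with a 95% Poisson interval of 6.20 to 21.0 counts, so they were within counting error. For S100A11 the means were 28.5% ± 0.253 (SD, n = 3) and 29.9% ± 0.611 (SD, n = 3).

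The share was lower in all si-KRT7 libraries for S100A2, S100A6 and S100A16. S100A2 took 24.9%, 25.2% and 25.5% in si-Control replicates 1, 2 and 3 and 21.5%, 24.2% and 22.0% in si-KRT7 replicates 1, 2 and 3. S100A6 took 8.29% ± 0.0901 (SD, n = 3) in si-Control and 7.16% ± 0.155 (SD, n = 3) in si-KRT7 cells, and S100A16 took 6.90% ± 0.134 (SD, n = 3) and 6.21% ± 0.296 (SD, n = 3). The shares of S100A4, S100A10 and S100A14 overlapped between the groups. The share did not overlap in 7 of 10 S100 genes, 4 higher and 3 lower, S100A8 among the 4 despite its counting error, and the ratio of counts to the summed S100 counts did not overlap in 14.3% of all genes tested (7.44% higher and 6.84% lower). The 10 shares add up to 100% by construction and the S100 genes make up their own denominator, so the count for the S100 genes and that for all genes are not alike in kind. The summed S100 CPM was also above all si-Control libraries in si-KRT7 replicate 2 (5479) and below them in replicates 1 and 3 (3585 and 3672). Division by it therefore moves these libraries in opposite directions, which favours overlap in genes that do not follow the sum. The 14.3% is thus no yardstick for the S100 genes.

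The ratio of S100P to S100A2 reads restates their shares for a pair of genes chosen after the values were seen, and it must separate the groups since both shares do. There were 0.367, 0.363 and 0.355 S100P reads for each S100A2 read in si-Control replicates 1, 2 and 3, and 0.508, 0.488 and 0.511 in those of si-KRT7. The group means were 0.361 ± 0.00620 (SD, n = 3) and 0.502 ± 0.0125 (SD, n = 3).

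**Figure D5:**
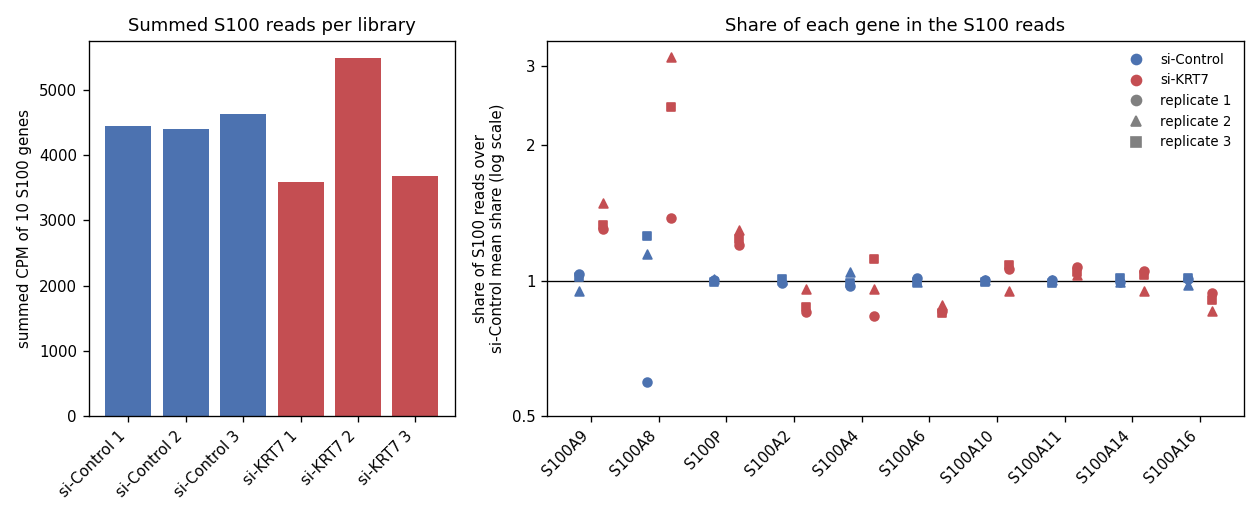
Left, summed CPM of the 10 S100 genes in each library (bars, from 0). Right, the share of each gene in the S100 reads of a library divided by the mean si-Control share (vertical axis, log scale), for si-Control (blue) and si-KRT7 (red) libraries, where red points lie above all blue points for S100A9, S100A8, S100P and S100A11 and below them for S100A2, S100A6 and S100A16.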

How the data were processed

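Polyadenylated RNA was copied from random primers and sequenced on the DNBSEQ platform. The values the authors deposited are raw counts of reads, as whole numbers, for each gene in each library. The submitters' processing notes name STAR 2.7.11b and the mouse build GRCm39, although the identifiers of the S100 genes are human. The counting tool, the annotation, and how reads with several matches were counted, which matters for a family with paralogs and pseudogenes, are not given in the sources used here.

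The tests ran in edgeR 4.0.16 under R 4.3.3 (filterByExpr, TMM, glmQLFit, glmQLFTest, Benjamini-Hochberg over all genes tested), and the limit was an adjusted p of 0.05. Standard errors are the log2 fold change divided by the square root of F, and 95% intervals follow from them. Scripts were tested on simulated counts. Alternatives used DESeq2 1.42.0, limma 3.58.1, other scalings and filters, each library left out and the replicate number as a block. The named genes were the 10 members whatever their values, with names from the member list, since 0 identifiers matched the name tables used here. Lists of other S100 genes, S100 partners and cell type markers, KRT7, gene positions and sequences were therefore not analysed here. Members and lists were chosen with earlier results of these data known.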

Additional observations from a re-analysis of the deposited data

How the results depend on the processing

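With all 6 libraries edgeR called 325 genes (112 higher, 213 lower) and 0 S100 genes. The number of S100 genes stayed 0 with limma-voom, the DESeq2 Wald test (where S100A8 had no adjusted p), a robust fit, scaling by library size only or by DESeq2's size factors, at least 10 counts in every library (where S100A8 was not tested), the limit on fold change, the replicate block and each library other than si-KRT7 replicate 2 left out. It was 6, all lower, in limma-voom with sample quality weights, and 2, 1 higher and 1 lower, with no filter on low counts. Over all genes the DESeq2 Wald test called 941 (410 higher, 531 lower), the fit with sample quality weights 6858 (3426 higher, 3432 lower), no filter on low counts 1347 (689 higher, 658 lower) and the limit on fold change 46 (23 higher, 23 lower). The limit on fold change was set on the calls of the main edgeR fit, so it can only lower their number. What caused the other differences was not tested.

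In edgeR with TMM and a library left out, between 6 and 6944 genes were called (2 to 3379 higher, 4 to 3565 lower) and between 0 and 7 S100 genes, all lower. The highest values came without si-KRT7 replicate 2, and the lowest numbers of genes came without si-Control replicate 1 or 2. In fits without si-KRT7 replicate 2 that were chosen after seeing the data, the DESeq2 Wald test called 5909 genes (2877 higher, 3032 lower) and 6 S100 genes, again with no adjusted p for S100A8, limma-voom 6934 (3421 higher, 3513 lower) and 7 S100 genes, and library size only 6874 (3927 higher, 2947 lower) and 6 S100 genes. In all 3 and in edgeR with TMM, S100A2, S100A6, S100A10, S100A11, S100A14 and S100A16 passed, and S100A4 passed in 2 of these 4 fits.

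The direction of the log2 fold change turned for S100P without si-KRT7 replicate 2 (-0.029 in edgeR, -0.025 in the DESeq2 Wald test and -0.031 in limma-voom, but 0.018 with library size only), for S100A4 (0.052) and S100A10 (0.026) without si-KRT7 replicate 1, and for S100A11 without si-KRT7 replicate 1 (0.078), without si-KRT7 replicate 3 (0.079) and with library size only (0.00144). None of these estimates passed the limit. Over the fits with a library left out the log2 fold change ran from -0.029 to 0.37 for S100P, from -0.35 to 0.052 for S100A4, from -0.21 to 0.026 for S100A10 and from -0.23 to 0.079 for S100A11. The mean summed S100 CPM of si-KRT7 cells, 4245 with all libraries, ran from 3629 to 4576 with a library left out, on both sides of the si-Control mean of 4493. The SD among the si-KRT7 libraries was 1069 with replicate 2 and 61.8 for replicates 1 and 3 alone. It is no yardstick for these moves, since leaving 1 of 3 libraries out always moves a mean by less than the SD.

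With the replicate block 76 genes were called (26 higher, 50 lower) and 0 S100 genes. Deviations from the group means in same-numbered libraries had correlations of 0.0520, -0.0798 and -0.0728 across genes. Only 1 of 6 libraries correlated best with its own number. Deviations within a group depend on each other, and si-KRT7 replicate 2 stood apart. These correlations therefore cannot decide whether same-numbered libraries shared more than a number, such as a culture or a batch.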
